A study of Mus musculus with 12 samples.

Results

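Cysteine supply and glutathione genes are followed here in mouse macrophage-like cells: Cth, Slc7a11, Gclm, Gclc, Gss, Gsr, Gsta3, Gstm1, Gpx1 and Gpx4. They were chosen by gene name with earlier results of these data known, so counts set beside those of all genes are descriptive only. All 10 were found in the deposited table and passed the filter on low values, which kept 11745 genes. The cells are J774A.1, a line of BALB/c origin, in 4 groups of 3 replicates each: untreated (control), given microparticles (MP), given lipopolysaccharide (LPS, the Gram-negative outer membrane component sensed through Toll-like receptor 4), or given both (LPS+MP). What the particles were made of, their dose, the LPS dose and the times of exposure are details that the labels leave out. All groups are the same line, so a value describes J774A.1 and no primary macrophage. Values are in CPM, read counts scaled to the same total in each library. Rose and fell are used only where the adjusted p was under 0.05 and the change was over 1 on the log2(CPM + 1) scale, the size threshold.

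Glutathione is a tripeptide of glutamate, cysteine and glycine that keeps the cell interior reduced. Cysteine is usually its limiting part, and cells either import the oxidised dimer cystine or make cysteine from methionine by transsulfuration. Glutamate-cysteine ligase and then glutathione synthetase join the 3 amino acids, peroxidases and transferases spend glutathione on peroxides and electrophiles, and a reductase recycles the oxidised form with NADPH. In macrophages this system meets the oxidants that the cells make during activation, and several of its genes are textbook targets of the transcription factors NRF2 and ATF4.

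The labelled cell type was checked first. Of 12 macrophage markers 10 were in the table, at a summed 5563 to 8075 CPM per library, and Adgre1 and Cd163 are not analysed here. Markers of epithelial, B, erythroid and mast cells were not among the genes analysed here. Ranges of the other cell types' markers differed between groups and were not tested. The 1 fibroblast gene of 8 in the table, Pdgfra, stood at 1.00 to 1.64 CPM in control, 1.99 to 2.35 in MP, 7.67 to 10.8 in LPS and 6.90 to 7.97 in LPS+MP. The 1 T cell gene of 7, Lck, stood at 3.57 to 4.09, 9.62 to 10.1, 9.11 to 11.5 and 9.43 to 10.7 in the same order. The 3 endothelial genes of 6 summed to 18.8 to 22.3, 14.8 to 17.9, 5.72 to 11.9 and 6.87 to 10.3, and the 2 neutrophil genes of 6 to 1.30 to 2.67, 1.36 to 2.14, 4.14 to 6.04 and 2.36 to 5.08. Platelet and megakaryocyte genes, 4 of 7 in the table, summed to 245 to 305 CPM in control, 303 to 328 in MP, 526 to 643 in LPS and 384 to 460 in LPS+MP, nearly all of it Pf4. Their part in the results was not tested. LPS replicate 2 stood apart, where 339 genes lay over 1 (log2) from the average of its group mates, against 29 and 17 for replicates 1 and 3. Among the glutathione genes its widest gap was Gpx4, at -0.52 (log2) from that average.

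With microparticles alone 4 of the 10 genes rose and 0 fell, where 1.82% of all tested genes rose and 1.85% fell. These were Cth, Slc7a11, Gclm and Gsta3, which act in cysteine synthesis, cystine import, glutathione synthesis and conjugation. With LPS alone 2 of 10 rose, Cth and Slc7a11, the cysteine supply pair, against 8.30% of all genes, and 0 fell, against 8.05%. With LPS+MP the 4 genes of the MP comparison rose against control, beside 8.52% of all genes, and 0 fell, beside 12.3%. On the adjusted p alone, 8 of 10 were higher and 1 lower with MP, where 20.6% of all genes were higher and 18.3% lower. The same counts were 5 and 3 with LPS (26.6% and 35.6% of all genes) and 7 and 2 with LPS+MP (27.7% and 38.6%). The median change of the 10 genes was 0.82, 0.24 and 0.67 on the log2 scale in that order, and the medians over all tested genes were 0.02, -0.08 and -0.10. These 3 comparisons share their control libraries. In bulk RNA, fewer cells in a given state and less RNA per cell cannot be told apart.

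**Figure D1:**
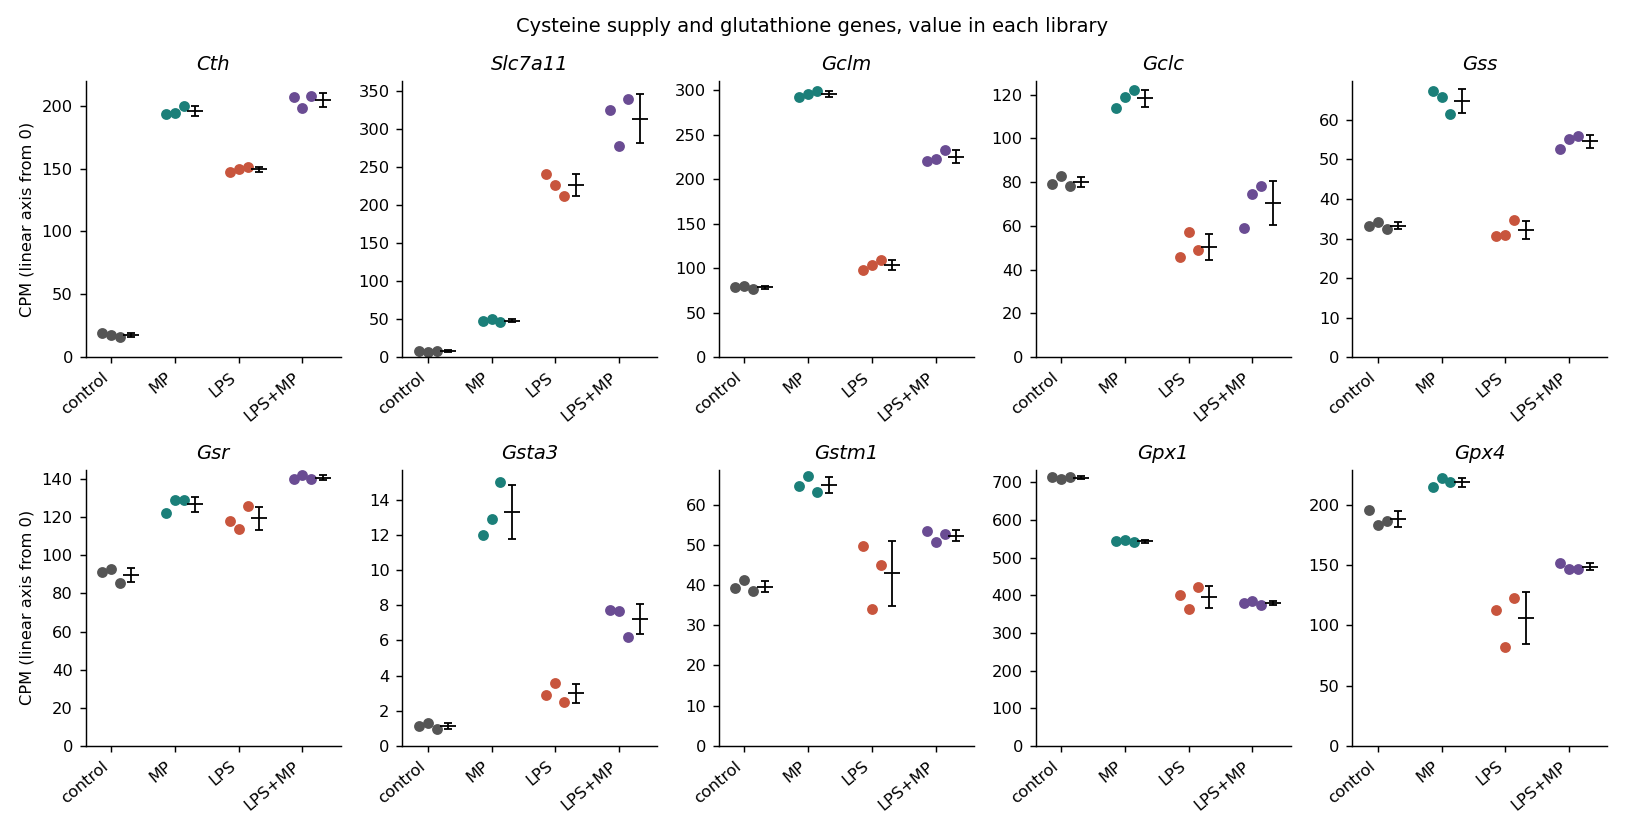
CPM of each gene in every library (points; linear axis from 0, 1 panel per gene) by group, with the mean and SD of 3 libraries as a black bar beside them. Cth is at 147 CPM or more in every treated library and under 20 in control, Slc7a11 is highest with LPS+MP, Gclm, Gclc, Gss, Gsta3 and Gstm1 are highest with MP alone, and Gpx1 is highest in control.

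**Figure D2:**
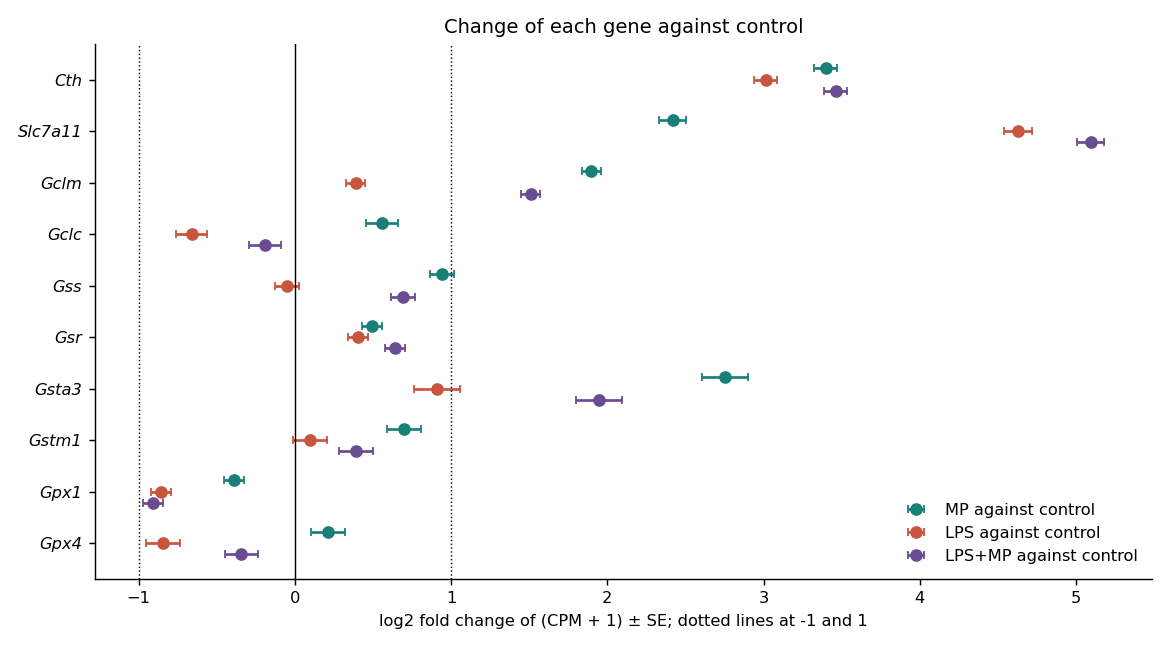
Log2 fold change of (CPM + 1) against control with its SE for each gene (rows) in MP, LPS and LPS+MP cells (colours); dotted lines mark the size threshold of 1. Slc7a11 reaches 5.09 with both treatments, while Gpx1 lies below 0 in all 3 comparisons.

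Cth encodes cystathionine gamma-lyase, the transsulfuration enzyme that releases cysteine from cystathionine (chromosome 3, 157894248 to 157925077, minus strand). Its level was 19.6, 17.7 and 15.8 CPM in the control libraries and 193, 194 and 200 with MP. LPS libraries held 147, 150 and 151, and LPS+MP libraries 207, 198 and 208. Every treated library was far above every control library, and the MP and LPS+MP ranges overlapped. The rise was 3.40 ± 0.07 (log2 ± SE) with MP (limma adjusted p = 1.58e-13), 3.01 ± 0.07 with LPS (adjusted p = 2.7e-14) and 3.46 ± 0.07 with both (adjusted p = 3.16e-15). The order was control, LPS, MP, LPS+MP. MP and LPS differed by 0.39 ± 0.07 (adjusted p = 0.000373), and LPS+MP and MP did not differ beyond their spread (0.06 ± 0.07, adjusted p = 0.494; 0.21 and adjusted p = 0.0226 with median-ratio scaling).

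Slc7a11 encodes xCT, the subunit of the cystine-glutamate exchanger that carries cystine into the cell (chromosome 3, 50364936 to 50443613, minus strand). Control libraries held 8.71, 7.33 and 8.55 CPM and MP libraries 47.7, 49.9 and 46.5. The values were 240, 226 and 212 with LPS and 324, 277 and 339 with LPS+MP. No groups overlapped, and the order control, MP, LPS, LPS+MP differs from that of Cth. The rise was 2.42 ± 0.09 with MP (limma adjusted p = 6.93e-11), 4.63 ± 0.09 with LPS (adjusted p = 1.65e-15) and 5.09 ± 0.09 with both (adjusted p = 4.37e-16), the last 34.1-fold. LPS exceeded MP by 2.21 ± 0.09 (adjusted p = 1.28e-11), whereas for Cth LPS lay below MP. LPS+MP exceeded MP by 2.67 ± 0.09 (adjusted p = 8.85e-13), and Slc7a11 was the 1 gene of the 10 that rose in that comparison, where 5.71% of all genes did. The partner subunit gene Slc3a2, which encodes the heavy chain CD98, did not reach the size threshold in any of the 3 control comparisons (0.33 ± 0.11, 0.30 ± 0.11 and 0.57 ± 0.11 for MP, LPS and LPS+MP), and it was chosen after its values were seen.

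The promoter windows of the genes that rose are shown because NRF2 and ATF4 bind known short elements. RefSeq windows (build GRCm38.p6, 250 bases before to 50 after the transcription start) were at hand for 7 of the 10 genes; Cth, Gclc and Gsr had none. Searched on both strands were TGACNNNGC, the core of the antioxidant response element that NRF2 binds, and TGATGNAA, the core of the C/EBP-ATF response element. Of 32851 windows of all genes 12.4% held the first and 3.97% the second, or 14% and 4.51% of 27025 genes. The first was found in 2 of the 7 genes and the second in 1. The windows are written 5′ to 3′ on the gene's strand, with matches in capitals: chr3:50443564-50443863 (minus strand) for Slc7a11, chr3:122245307-122245606 (plus) for Gclm and chr1:21240335-21240634 (plus) for Gsta3.
Slc7a11: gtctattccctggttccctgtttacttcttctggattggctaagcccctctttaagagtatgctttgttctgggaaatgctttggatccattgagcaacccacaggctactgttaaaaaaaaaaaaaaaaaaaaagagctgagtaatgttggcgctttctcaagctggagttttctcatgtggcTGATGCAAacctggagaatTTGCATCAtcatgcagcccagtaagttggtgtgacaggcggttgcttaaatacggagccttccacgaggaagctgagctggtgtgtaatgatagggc
Gclm: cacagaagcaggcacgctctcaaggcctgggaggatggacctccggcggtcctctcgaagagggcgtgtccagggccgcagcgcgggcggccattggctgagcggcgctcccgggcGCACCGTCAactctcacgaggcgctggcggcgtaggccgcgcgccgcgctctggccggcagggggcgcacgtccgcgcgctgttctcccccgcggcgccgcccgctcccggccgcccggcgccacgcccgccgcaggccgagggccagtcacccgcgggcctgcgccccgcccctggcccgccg
Gsta3: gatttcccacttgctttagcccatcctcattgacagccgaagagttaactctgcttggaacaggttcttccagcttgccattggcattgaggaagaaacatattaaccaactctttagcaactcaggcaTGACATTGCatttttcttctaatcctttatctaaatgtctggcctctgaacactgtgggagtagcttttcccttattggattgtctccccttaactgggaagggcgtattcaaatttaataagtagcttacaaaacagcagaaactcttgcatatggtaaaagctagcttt
The Slc7a11 window holds TGATGNAA on each strand, starting at -66 and -47 from the start site. Gclm and Gsta3 each hold 1 match of TGACNNNGC, at -134 and -121, on the minus and plus strand of the window. Gss, Gstm1, Gpx1 and Gpx4 had no match in their windows. GC content was 44.7% in the Slc7a11 window, 79.7% in that of Gclm and 41% in that of Gsta3, against a median of 52.7% over all windows. A match is a run of letters and no measurement of binding.

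Gclm and Gclc encode the modifier and catalytic subunits of glutamate-cysteine ligase, the first and rate-limiting step of glutathione synthesis. Gclm (chromosome 3, 122245557 to 122269984, plus strand) stood at 78.5, 80.1 and 77.0 CPM in control and 292, 295 and 299 with MP. It was 97.7, 103 and 109 with LPS and 220, 223 and 233 with LPS+MP, with no overlap between any groups. Gclm rose by 1.90 ± 0.06 with MP (limma adjusted p = 2.42e-11) and by 1.51 ± 0.06 with LPS+MP (adjusted p = 6.19e-12), and LPS alone gave 0.39 ± 0.06 (adjusted p = 5.8e-05), short of the size threshold. LPS+MP libraries also lay above LPS libraries, a rise of 1.12 ± 0.06 (adjusted p = 3.79e-09).

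Gclc (chromosome 9, 77754535 to 77794485, plus strand) was measured beside its partner. The Gclc control libraries held 79.4, 82.8 and 78.4 CPM. These were near the CPM of Gclm, but per kb of transcript the control means were 23.4 for Gclc and 14.1 for Gclm. For Gclc, MP libraries held 114, 119 and 122 CPM, LPS libraries 45.6, 57.1 and 49.0, and LPS+MP libraries 59.2, 74.5 and 78.2. MP libraries were all higher and LPS libraries all lower than control, and LPS+MP libraries lay under control, replicate 1 farthest. No change against control passed the size threshold: 0.56 ± 0.10 with MP (limma adjusted p = 0.000518), -0.66 ± 0.10 with LPS (adjusted p = 3.94e-05) and -0.19 ± 0.10 with both (adjusted p = 0.108; 0.035 without LPS replicate 2). With single LPS+MP libraries left out, the last value ran from -0.27 without replicate 3 (adjusted p = 0.0463) to -0.07 without replicate 1. Between the single treatments Gclc fell from MP to LPS by 1.22 ± 0.10 (adjusted p = 7.07e-08).

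The ratio of Gclm to Gclc CPM within a library was near 1 in control (0.988, 0.968 and 0.982) and higher in all treated libraries. It was 2.56, 2.48 and 2.45 with MP, 2.14, 1.80 and 2.22 with LPS, and 3.72, 2.99 and 2.98 with LPS+MP. The ranges of the 4 groups did not overlap. The ratio was formed after the values were seen and has no test; it compares levels that are not per length, so its absolute size carries no meaning, only its order over libraries.

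**Figure D3:**
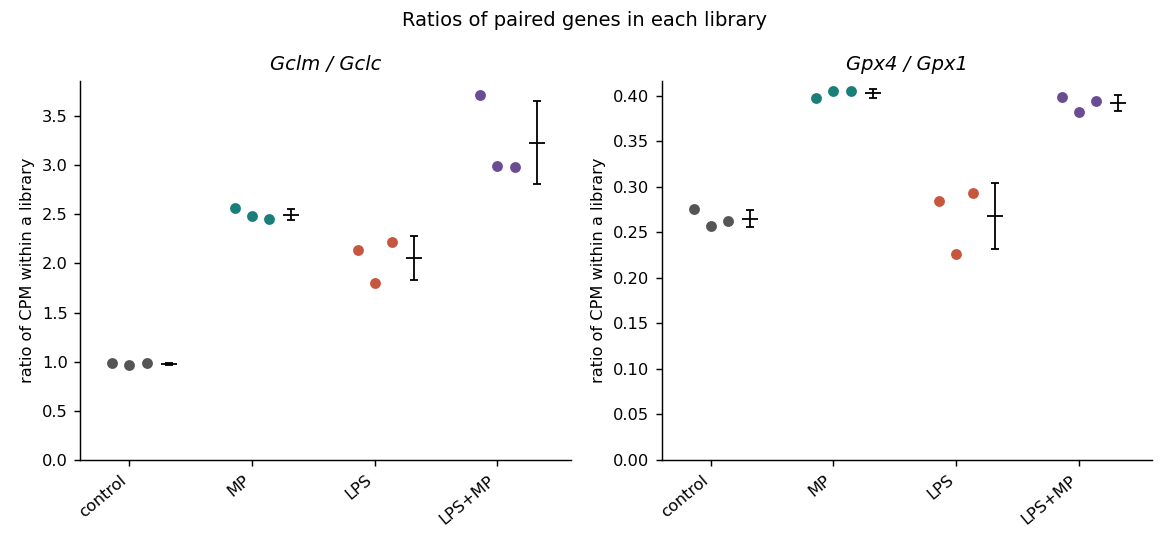
Ratio of the CPM of Gclm to Gclc (left) and of Gpx4 to Gpx1 (right) within each library (points; linear axes from 0), with the mean and SD of 3 libraries per group. The left ratio is 0.979 in control and 3.23 with LPS+MP; the right ratio is 0.265 and 0.268 in control and LPS, and 0.402 and 0.392 in MP and LPS+MP.

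Gss encodes glutathione synthetase, which adds glycine in the last step (chromosome 2, 155563181 to 155592810, minus strand). It was 33.3, 34.3 and 32.3 CPM in control, 67.4, 65.7 and 61.4 with MP, 30.7, 31.0 and 34.7 with LPS, and 52.7, 55.1 and 55.9 with LPS+MP. The groups given particles were all above those without, and control and LPS overlapped. The difference from control was 0.94 ± 0.08 with MP (limma adjusted p = 2.93e-07), close to but under the size threshold, and 0.70 ± 0.08 with LPS+MP (adjusted p = 9.9e-07). LPS and control did not differ beyond their spread (-0.05 ± 0.08, adjusted p = 0.579), and the sign turned with quantile normalization (0.027) and median-ratio scaling (0.028).

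Gsr encodes glutathione reductase, the recycling enzyme (chromosome 8, 33652523 to 33698163, plus strand). Control libraries held 91.2, 92.6 and 85.6 CPM, MP libraries 122, 129 and 129, LPS libraries 118, 114 and 126, and LPS+MP libraries 140, 142 and 140. All treated libraries exceeded control, by 0.49 ± 0.06 with MP (limma adjusted p = 2.72e-05), 0.41 ± 0.06 with LPS (adjusted p = 5.28e-05) and 0.64 ± 0.06 with both (adjusted p = 3.13e-07), all short of the size threshold. LPS and MP overlapped (-0.09 ± 0.06, adjusted p = 0.265; 0.032 with median-ratio scaling). LPS+MP stood 0.15 ± 0.06 above MP (adjusted p = 0.0647; 0.024 without LPS replicate 2), and 0.29 above it with median-ratio scaling (adjusted p = 0.000948).

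Gsta3 and Gstm1 encode glutathione transferases of the alpha and mu classes, which attach glutathione to electrophiles. Gsta3 (chromosome 1, 21240589 to 21265361, plus strand) was near the detection filter in control, at 1.14, 1.30 and 0.935 CPM. It was 12, 12.9 and 15 with MP, 2.91, 3.57 and 2.52 with LPS, and 7.71, 7.67 and 6.21 with LPS+MP. The 4 groups did not overlap, in the order control, LPS, LPS+MP, MP. Gsta3 rose by 2.75 ± 0.15 with MP (limma adjusted p = 3.2e-09) and 1.95 ± 0.15 with LPS+MP (adjusted p = 1.08e-08). With LPS it reached 0.91 ± 0.15 (adjusted p = 6.8e-05), under the size threshold, and with a pseudocount of 0.1 it passed at 1.34. Its rise from LPS to LPS+MP (1.04 ± 0.15, adjusted p = 6.4e-05) lay at the threshold and missed it without LPS replicate 3 (0.95), without LPS+MP replicate 1 (0.99) and without LPS+MP replicate 2 (0.99).

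Gstm1 (chromosome 3, 108012255 to 108017973, minus strand) held 39.2, 41.2 and 38.4 CPM in control and 64.5, 67.0 and 63.1 with MP. It held 49.7, 34.0 and 45.0 with LPS and 53.3, 50.7 and 52.8 with LPS+MP. MP libraries were the highest, and LPS replicate 2 lay below every other library. The difference from control was 0.70 ± 0.11 with MP (limma adjusted p = 0.000127), 0.10 ± 0.11 with LPS (adjusted p = 0.444) and 0.39 ± 0.11 with both (adjusted p = 0.00457). Without LPS replicate 2 the LPS value was 0.25 (adjusted p = 0.00424), and without LPS replicate 1 it was -0.014 (adjusted p = 0.914). Near-identical alpha and mu class genes exist, so reads may have been split between copies and the levels of Gsta3 and Gstm1 are uncertain.

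Gpx1 and Gpx4 encode selenium-containing glutathione peroxidases. GPX1 reduces hydrogen peroxide in the cytosol, and GPX4 reduces lipid peroxides in membranes. Gpx1 (chromosome 9, 108339080 to 108340338, plus strand) held 715, 709 and 713 CPM in control and 543, 547 and 540 with MP. It held 400, 363 and 421 with LPS and 380, 385 and 373 with LPS+MP, so every treated library was lower than every control library. The differences were -0.39 ± 0.06 with MP (limma adjusted p = 0.000226), -0.85 ± 0.06 with LPS (adjusted p = 1.48e-08) and -0.91 ± 0.06 with both (adjusted p = 4.93e-09), none past the size threshold. LPS and LPS+MP overlapped (adjusted p = 0.557).

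Gpx4 (chromosome 10, 80047166 to 80056439, plus strand) held 196, 183 and 187 CPM in control, 215, 222 and 219 with MP, 113, 82.1 and 123 with LPS, and 152, 147 and 147 with LPS+MP. The groups did not overlap, with MP highest and LPS lowest. Gpx4 stood at -0.84 ± 0.11 with LPS (limma adjusted p = 6.62e-06) and -0.34 ± 0.11 with LPS+MP (adjusted p = 0.0116; 0.0658 with median-ratio scaling), both short of the size threshold. MP gave 0.21 ± 0.11 (adjusted p = 0.137; 0.00223 without LPS replicate 2). From MP to LPS it fell by 1.05 ± 0.11 (adjusted p = 8e-07), but missed the size threshold when LPS replicate 2 was left out (-0.88) or median-ratio scaling was used (-0.94). The ratio of Gpx4 to Gpx1 CPM was 0.257 to 0.275 in control, 0.397 to 0.405 in MP, 0.226 to 0.293 in LPS and 0.382 to 0.399 in LPS+MP. Both particle groups lay above both groups without particles in this ratio, which was formed after the values were seen.

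Divided by transcript length, the peroxidases led all 10 genes in every group. Gpx1 was at 665 ± 2.65 CPM per kb in control and Gpx4 at 190 ± 7.13 (SD, n = 3), and the next, Gsr, at 33.6 ± 1.37. Cth moved from the eighth place in control (9.76 ± 1.04 CPM per kb) to the third in MP, LPS and LPS+MP (108 ± 2.13, 82.4 ± 1.15 and 113 ± 3.11). Slc7a11 went from 0.889 ± 0.0818 CPM per kb in control to 33.9 ± 3.50 with LPS+MP, and Gsta3, the lowest in control at 0.772 ± 0.126, stayed the lowest with LPS and with LPS+MP. Lengths are those of 1 annotated transcript per gene, so these levels are approximate.

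Adding microparticles to LPS-treated cells was read from LPS+MP against LPS. Of the 10 genes 2 rose, Gclm and Gsta3, where 0.630% of all genes rose, and 0 fell, where 3.89% did. On the adjusted p alone 9 of 10 were higher and 0 lower, against 13.0% and 22.2% of all genes, with the median at 0.47 (all genes -0.05). The exception was Gpx1 (-0.05 ± 0.06, limma adjusted p = 0.557). Cth, Slc7a11 and Gss were among those under the size threshold, at 0.45 ± 0.07, 0.47 ± 0.09 and 0.75 ± 0.08. Gsr and Gstm1 had the smallest differences of the 9 (0.23 ± 0.06 and 0.29 ± 0.11, limma adjusted p = 0.011 and 0.0446), and with only the LPS and LPS+MP libraries in the fit their adjusted p was 0.0563 and 0.143. For Gstm1 it was also 0.0504 with the replicate block, 0.0659 with no variance trend and 0.128 without LPS replicate 2 (0.14), so 8 of 10 passed there, and it was 0.0815 to 0.117 without any 1 of the LPS+MP libraries.

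Adding LPS to particle-treated cells, was read from LPS+MP against MP. Apart from Slc7a11, no gene passed both thresholds, and 7.88% of all genes fell. On the adjusted p alone 7 of 10 were lower and 1 higher, where 36.6% and 19.0% of all genes were. The median was -0.35, against -0.14 over all genes. Among the genes that were lower, the difference was largest for Gsta3 (-0.80 ± 0.15), Gclc (-0.75 ± 0.10) and Gpx4 (-0.55 ± 0.11). For Gss (-0.24 ± 0.08) and Gstm1 (-0.31 ± 0.11) the adjusted p of 0.0138 and 0.0244 became 0.289 and 0.225 with median-ratio scaling, which moved the median of all genes in this comparison by 0.13. Directly against MP, LPS alone gave 4 falls (Gclm, Gclc, Gsta3, Gpx4) and 1 rise (Slc7a11), where 5.0% of all genes fell and 6.64% rose. On the adjusted p alone 8 were lower and 1 higher, where 34.8% and 21.2% of all genes were.

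Whether the treatments added up on the log2 scale was tested as the interaction, the change with both minus the sum of the single changes. Adding on this scale multiplies the fold changes. Adding the changes in CPM was not tested and can give another sign. The interaction passed both thresholds with a negative sign for 3 of 10 genes, where 3.68% of all genes did. A positive sign passed for 0 (1.02% of all genes). On the adjusted p alone 4 were negative and 1, Gpx1, positive, against 15.5% and 6.45% of all genes. For Gpx1 both single changes were negative, with a sum of -1.245 and a measured change of -0.91. For Cth the single changes summed to 6.41 and the change with both was 3.46, an interaction of -2.95 ± 0.10 (limma adjusted p = 2.18e-10). For Slc7a11 the sum was 7.04 and the measured change 5.09 (-1.95 ± 0.13, adjusted p = 1.27e-07). Its group means were 8.20, 48.0, 226 and 313 CPM in control, MP, LPS and LPS+MP. For Gsta3 the sum and the measured change were 3.66 and 1.95 (-1.71 ± 0.21, adjusted p = 3.5e-05). Gclm (-0.78 ± 0.09, adjusted p = 1.84e-05) was under the size threshold. Gclc (-0.09 ± 0.14, adjusted p = 0.701) and Gss (-0.19 ± 0.11, adjusted p = 0.221) did not depart from the sum beyond their spread. Gsr, Gstm1 and Gpx4 lay at -0.26 ± 0.09, -0.40 ± 0.15 and 0.29 ± 0.15 (adjusted p = 0.0521, 0.069 and 0.194). Without LPS replicate 2 the adjusted p of Gstm1 was 0.000169 and that of Gsr 0.0108.

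**Figure D4:**
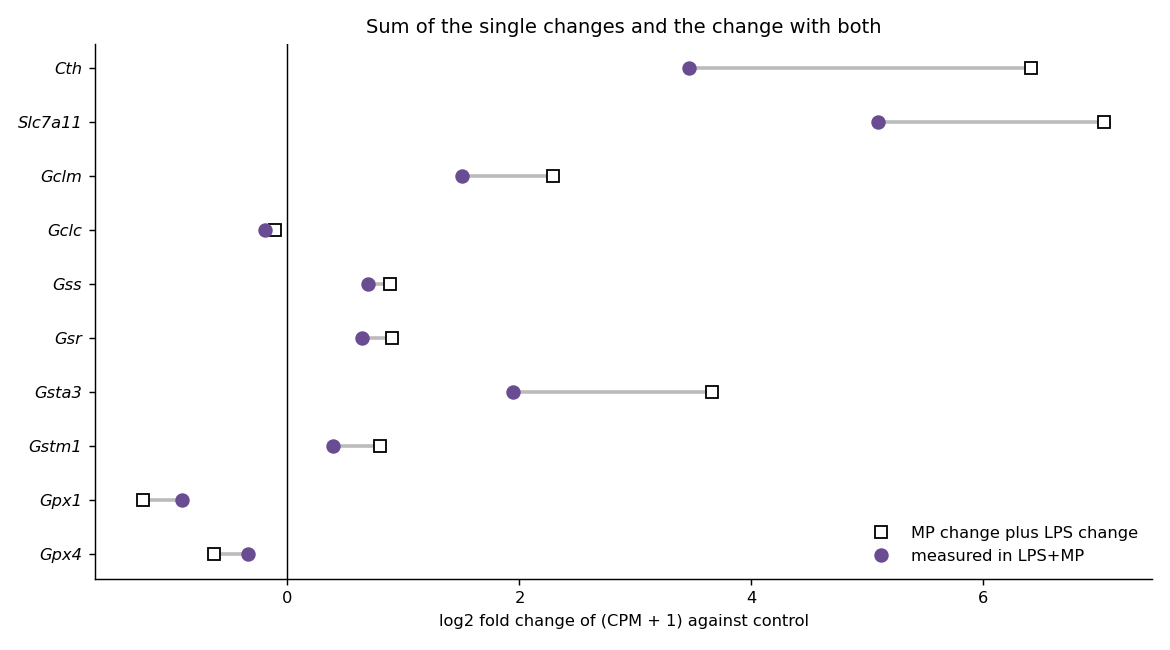
For each gene (rows), the sum of the MP and LPS changes against control (open squares) and the change measured in LPS+MP (filled circles), as log2 fold change of (CPM + 1); the grey bar between them is the interaction. The bar is longest for Cth (-2.95) and short for Gclc (-0.09).

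The 10 genes did not share 1 pattern. After each gene was centred on its own mean, the closest pairs over the 12 libraries were Gss and Gstm1 (root mean square difference 0.22, log2), Gsr and Gstm1 (0.23) and Gclc and Gpx4 (0.25); Gclm was closest to Gsta3 (0.34). Among all tested genes, those most like Cth by the same measure were Ptger2 (0.36), Csf1 (0.37) and Neat1 (0.50). For Slc7a11 they were Il1rn (0.31), Cd274 (0.34) and Osbp2 (0.35). For Gclm they were Ddit3 (0.25), Slc16a14 (0.27) and Trib3 (0.30), and for Gsta3 Angptl6 (0.29), Ddit3 (0.31) and Gclm (0.34). Gclc was most like Ddx28 (0.14), Gm8226 (0.15) and Rpl12 (0.15), and the genes near Gpx4 included Nubpl (0.09) and Spsb2 (0.10). The median distance over all genes was 1.48 for Cth, 2.08 for Slc7a11, 0.84 for Gclm and 0.47 for Gpx4. The libraries share groups, so these distances largely restate the 4 group means.

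The surrounding pathways were followed through 110 listed genes, of which 89 were in the table and tested. With MP 7 rose and 0 fell, with LPS 9 rose and 4 fell, and with LPS+MP 9 rose and 8 fell. These are 7.87% and 0%, 10.1% and 4.49%, and 10.1% and 8.99% of the 89, to be read against the shares of all genes given above. Medians were 0.09, -0.16 and -0.12, close to those over all genes.

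The methionine cycle and transsulfuration list also holds genes of cysteine and sulfide breakdown, which are not upstream of Cth. In this list 1 of 17 genes rose with MP, Sqrdl, the mitochondrial sulfide oxidation enzyme gene. It held 32.3 ± 3.46 CPM in control and 96.1 ± 8.48 with MP (SD, n = 3). Sqrdl also rose with LPS (82.3 ± 8.06) and with both (108 ± 6.84). Ahcy, which hydrolyses S-adenosylhomocysteine, went the other way: it fell from 103 ± 2.92 CPM to 41.1 ± 2.49 with LPS and 34.5 ± 2.50 with both (-1.31 ± 0.08 and -1.55 ± 0.08), and was 80.1 ± 2.08 with MP. Cbs, the transsulfuration enzyme before CTH, stayed low in all groups: 1.63 ± 0.323, 2.64 ± 0.253, 1.96 ± 0.656 and 0.678 ± 0.306 CPM in control, MP, LPS and LPS+MP. It fell from MP to LPS+MP by 1.13 ± 0.19 (limma adjusted p = 0.000103).

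In transport, 1 of 9 genes rose with MP, the neutral amino acid carrier gene Slc1a4 (21.9 ± 1.82 to 46.6 ± 4.44 CPM). With LPS or LPS+MP 0 of 9 rose or fell. Over all genes 8.30% rose and 8.05% fell with LPS, and 8.52% and 12.3% with LPS+MP. On the adjusted p alone 2 of 9 were higher and 2 lower with MP (20.6% and 18.3% of all genes). These counts were 3 and 4 with LPS (26.6% and 35.6%) and 3 and 5 with LPS+MP (27.7% and 38.6%). Slc1a4 was 28.3 ± 1.38 with LPS and 25.7 ± 0.745 with both, an interaction of -1.19 ± 0.13 (limma adjusted p = 1.55e-05). In breakdown, salvage and export, 2 of 12 rose with MP, the exporter genes Abcc1 (148 ± 8.99 to 312 ± 26.1 CPM) and Abcc5 (33.2 ± 0.726 to 74.4 ± 1.87). Abcc1, whose product exports glutathione conjugates, was 317 ± 24.4 with LPS and 345 ± 18.5 with both, a rise in each. Abcc5 reached 366 ± 47.8 with LPS and 394 ± 12.7 with both (3.41 ± 0.08 and 3.53 ± 0.08). The aminopeptidase gene Anpep fell from 221 ± 19.5 CPM to 58.5 ± 4.62 with LPS and to 94.7 ± 5.10 with both. The dipeptidase gene Dpep2, at 53.1 ± 5.0 in control and 31.3 ± 0.633 with LPS, fell with both to 22.4 ± 1.61.

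Of 15 other glutathione transferase genes 2 rose with MP, among them Gsto1 of the omega class (33.1 ± 0.969 to 82.9 ± 4.58 CPM), which was 33.3 ± 2.26 with LPS. The other was the microsomal gene Mgst1 (1.15 ± 0.14), which also rose with both (1.08 ± 0.14). Gstt1, of the theta class, was at 0.298 ± 0.101 CPM in control and 0.547 ± 0.168 with MP, and rose to 9.76 ± 1.92 with LPS and 3.81 ± 0.373 with both; its fall from LPS to LPS+MP (-1.15 ± 0.16, limma adjusted p = 6.47e-05) was the 1 call among the 89 in that comparison. Mgst3 fell from 25.1 ± 2.02 to 7.21 ± 1.84 with LPS, and fell to 6.92 ± 0.378 with both. Gstcd fell with both, from 43.2 ± 1.69 to 20.9 ± 2.41. Of 8 genes for other peroxidases and selenoprotein synthesis 0 rose or fell in the 3 control comparisons. On the adjusted p alone 1 was higher and 1 lower with MP, 0 and 3 with LPS, and 0 and 2 with LPS+MP. These are to be read against the shares of all genes given above. The most abundant were Prdx6 (105 ± 5.23 in control) and Sephs2, the selenophosphate synthetase gene (125 ± 0.485, 87.8 ± 5.49, 101 ± 3.38 and 72.6 ± 1.51 over control, MP, LPS and LPS+MP). Among 7 glutaredoxin and glyoxalase genes, Esd, the S-formylglutathione hydrolase gene, rose in all 3 comparisons, from 125 ± 3.28 CPM to 387 ± 11.5, 335 ± 8.65 and 631 ± 14.1. Glrx, glutaredoxin, rose with LPS (56.1 ± 4.17 to 235 ± 20.9) and with both (188 ± 13.4), and was 52.9 ± 2.22 with MP.

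For NADPH supply, on which glutathione reductase draws, 0 of 12 genes rose or fell with MP, where 1.82% and 1.85% of all genes did. On the adjusted p alone 4 of 12 were higher and 2 lower with MP, where 20.6% and 18.3% of all genes were. The same counts were 3 and 8 with LPS (26.6% and 35.6% of all genes) and 3 and 7 with LPS+MP (27.7% and 38.6%). Medians of the 12 were 0.03, -0.61 and -0.48 in that order, against 0.02, -0.08 and -0.10 over all genes. With LPS 1 of 12 fell, the mitochondrial isocitrate dehydrogenase gene Idh2 (133 ± 2.70 to 54.8 ± 1.68 CPM). With both 3 fell, Idh2 (46.2 ± 1.73), the cytosolic Idh1 (174 ± 10.6 to 66.6 ± 3.96) and the transhydrogenase gene Nnt (55.0 ± 4.25 to 21.4 ± 0.831), and 1 rose, the malic enzyme gene Me1 (1.32 ± 0.12). Taldo1, of the pentose phosphate pathway, fell from MP (468 ± 14) to LPS (218 ± 12.2). Of 9 regulators 0 were called with MP. On the adjusted p alone 3 of the 9 were higher and 1 lower with MP. These counts were 1 and 6 with LPS, and 3 and 4 with LPS+MP, to be read against the shares of all genes above. Cebpb, a partner of ATF4 at its composite sites, rose with LPS and with both, and its libraries held 483, 267 and 575 CPM with LPS and 800, 791 and 844 with LPS+MP, against 182 to 205 in control. LPS replicate 2 was the low one. With MP the Cebpb libraries held 364, 402 and 376 CPM, a change of 0.98 ± 0.18 (limma adjusted p = 0.00069), close to but under the size threshold. Nfe2l2, the NRF2 gene, and Atf4 passed the size threshold in none of the 3 control comparisons. Nfe2l2 stood at -0.09 ± 0.07, -0.46 ± 0.07 and -0.46 ± 0.07 with MP, LPS and LPS+MP (limma adjusted p = 0.383, 6.23e-05 and 4.57e-05). Atf4 stood at 0.43 ± 0.07, -0.44 ± 0.07 and 0.14 ± 0.07 (adjusted p = 0.000173, 4.93e-05 and 0.0897). Nfe2l2 and Atf4 were chosen after their values were seen, as were Mgst1 and Me1.

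**Figure D5:**
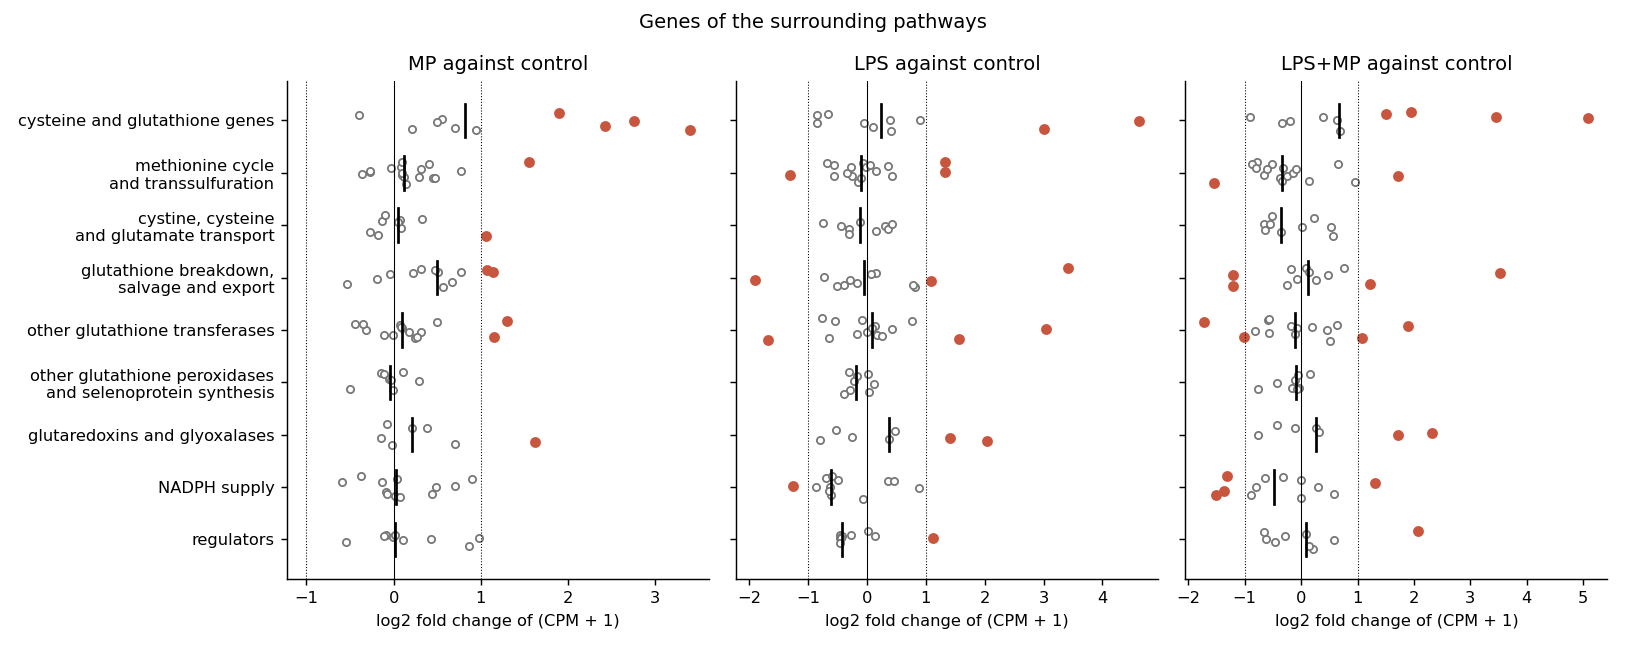
Log2 fold change of (CPM + 1) against control for the 10 genes (top row) and for each tested gene of 8 surrounding lists (other rows), in MP, LPS and LPS+MP cells (panels; horizontal axes differ between panels). Filled points passed both thresholds, open points did not, black ticks are medians and dotted lines mark -1 and 1; the 10 genes have medians of 0.82, 0.24 and 0.67.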

How the data were processed

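Polyadenylated RNA of 12 libraries was measured by sequencing with a directional kit and 16 PCR cycles, per the labels' protocols. The submitters' processing notes name TopHat2 2.1.1, HTSeq, edgeR, DESeq2, Trimmomatic 0.36 and FastQC 11.5, without saying what each did; no source used here gives the strand setting of the counting or the genome build. Of 11671 gene IDs found in GENCODE M21 (GRCm38), 11666 overlapped the GRCm38 gene of the same ID, and the coordinates given are the deposited ones. The deposited columns are headed RPKM but were read as CPM: each summed to between 998867 and 999273, and the log2 mean tracked the deposited log2 CPM column (headed logCPM) with an SD of 0.20, or 0.99 with a length term. Whole reads were recovered in only 2 of 12 libraries (share whole 0.164 to 0.925 in the others, tolerance 0.05 of a step), so depth is unknown and no count model was fitted.

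Values were transformed as log2(CPM + 1), which understates changes of low genes. Genes with at least 1 CPM in at least 3 libraries were kept. One limma 3.58.1 model (R 4.3.3) with a variance trend covered the 4 groups, with Benjamini-Hochberg adjustment over 11745 genes in each of 7 comparisons. Groups and replicate numbers came from the sample titles. The procedure was also run on simulated data with independent libraries and, for each gene, the same spread in all groups. That simulation held no library that stands apart as LPS replicate 2 does, and no result here rests on it. The 10 genes and the pathway lists were chosen with earlier results of these data known. All 10 are named, with up to 4 genes per list that passed both thresholds, taken by adjusted p, or else the 2 of highest mean level, and the 3 nearest genes of each of the 10 that passed anywhere; other names are marked in the text. Of the genes this rule selects, 2 are not reported here. Alternatives were no size threshold, each library left out, a fit of the compared groups alone, no variance trend, the replicate number as a block, scaling by median ratios, quantile normalization, a pseudocount of 0.1, and a filter of 5 CPM or none. After seeing the data, LPS replicate 2 was also left out of the fit where LPS-only libraries are not compared.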

Additional observations from a re-analysis of the deposited data

Results flagged for a closer look

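The log2 change with microparticles differed between cells without and with LPS, by the test of the interaction (limma adjusted p under 0.05), in 5 of the 10 genes. The values on the log2 scale were -2.95 ± 0.10 for Cth, -1.95 ± 0.13 for Slc7a11, -1.71 ± 0.21 for Gsta3, -0.78 ± 0.09 for Gclm and 0.34 ± 0.09 for Gpx1, of which 4 were negative and 1 positive, against 15.5% and 6.45% of all tested genes. For Cth, MP libraries exceeded control by 3.40 and LPS+MP libraries exceeded LPS by 0.45. For Gpx1 the single changes summed to -1.245 and the change with both was -0.91. The change with both thus lay nearer 0 than the sum, as in the 4 genes with a negative sign. The adjusted p of Gpx1 was 0.0153, and it was 0.0538 with quantile normalization. Groups of 3 libraries were too small for the check of single outlying samples.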

How the results depend on the processing

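The counts of genes that rose or fell among the 10 were within 1.5 times of those reported under every alternative, apart from LPS+MP against LPS, where 1 to 2 were called when single libraries were left out (1 without LPS replicate 3, LPS+MP replicate 1 or LPS+MP replicate 2), and apart from dropping the size threshold. Without that threshold 9, 8 and 9 of 10 passed for MP, LPS and LPS+MP against control, 9 for LPS+MP against LPS, 8 for LPS+MP against MP, 9 for LPS against MP and 5 for the interaction. On the adjusted p alone, 20.6% of all genes were higher and 18.3% lower with MP against control. The same shares were 26.6% and 35.6% for LPS against control, and 27.7% and 38.6% for LPS+MP against control. They were 13.0% and 22.2% for LPS+MP against LPS, and 19.0% and 36.6% for LPS+MP against MP. For LPS against MP they were 21.2% and 34.8%, and for the interaction 6.45% and 15.5%. To be read beside those shares, 38, 61, 64, 41, 58, 55 and 26 of the 89 other pathway genes passed, in the same order. For LPS+MP against LPS the 1 call among these became 3 with a pseudocount of 0.1, 0 with quantile normalization and 1 to 3 with single libraries left out (3 without LPS replicate 1, 2 without LPS replicate 2 or 3). The cause was not tested. Signs turned where values were near 0: Gss with LPS against control (0.027 with quantile normalization, 0.028 with median-ratio scaling) and Gsr for LPS against MP (0.032 with median-ratio scaling). With single libraries left out, Gstm1 with LPS against control ran from -0.014 to 0.25 and the interaction of Gclc from -0.16 to 0.034, the latter positive without LPS replicate 2 or LPS+MP replicate 1.

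Across 1060 values of the 10 genes under other settings, the adjusted p crossed 0.05 in 35, spread over 14 of the 70 gene and comparison pairs. Median-ratio scaling moved the median of all genes by 0.13 in LPS+MP against MP and by 0.11 in LPS against MP, and quantile normalization by 0.12 in the first and 0.11 in LPS+MP against control. Replicate numbers did not pair the libraries: residuals of 18 same-numbered pairs had a median correlation of 0.018 (lowest -0.247, highest 0.158), and for 3 of 12 the best match shared the number. With the replicate block the counts were 4, 2, 4, 2, 1, 5 and 3 of the 10 genes over the 7 comparisons and 7, 13, 17, 1, 12, 12 and 5 of the 89, as without it; on the adjusted p alone, the block took Gstm1 for LPS+MP against LPS to 0.0504. Depth is unknown, so the counting error behind low values such as Gsta3 in control is too.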
